A study of Mus musculus with 7 samples.

Results

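The genes described here encode the translation initiation factors, the proteins that bring an mRNA, the initiator tRNA and the ribosomal subunits together at a start codon. They were the protein-coding rows of the deposited expression table whose symbol begins with Eif1 to Eif6, without the Eif2ak kinases and without Eif2s3y, and with a mean of at least 10 normalized counts over the libraries. This gave 48 genes of 16476 rows, and all 48 were among the 12963 rows tested. Of 49 matching genes, Eif4ebp3 alone lay below the minimum, with a mean of 3.94 normalized counts. The nearest gene above it was Eif3j2, with a mean of 13.4. The next lowest member, Eif2b3, had a mean of 126. A further 3 processed pseudogenes of the family were not counted as members.

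The cells had been washed from the lungs of C57BL/6 mice (bronchoalveolar lavage) 3 days after lipopolysaccharide, a component of bacterial cell walls, was put into the trachea. The Ntn1_KO group comprised 3 libraries from mice with loxP-flanked Ntn1 alleles and LysM Cre. The LysM_Cre control group comprised 4 libraries from mice with LysM Cre alone, so both groups carried the Cre and both received lipopolysaccharide. Ntn1 encodes the secreted guidance protein netrin-1. LysM Cre is driven from the lysozyme M locus, which is active in macrophages, monocytes and neutrophils, so other cells in the lavage are not expected to carry the deletion. Neutrophils were depleted with antibodies before RNA was taken. The labels used here give no age for the mice and do not say if a library stands for 1 mouse. A p-value therefore reflects only how far libraries of a group differ, some of which may be technical.

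The recovered reads came to between 12224835 and 13182585 in the Ntn1_KO libraries and between 9903284 and 13353733 in the LysM_Cre libraries. The targeted gene was scarce in either group, with 1, 0 and 1 reads in Ntn1_KO libraries and 1, 4, 9 and 3 reads in LysM_Cre libraries. Its normalized count was 0.639 ± 0.556 (SD, n = 3) in Ntn1_KO and 4.16 ± 2.86 (SD, n = 4) in LysM_Cre, and the 2-sided exact permutation p was 0.0571, where the smallest possible is 0.0286. Lyz2, the lysozyme M gene that carries the Cre, set 2 control libraries apart. It had 936, 1052 and 910 normalized counts in the Ntn1_KO libraries, against 76927, 770.1, 721 and 118781 in LysM_Cre replicates 1 to 4, and called members and gene lists are therefore also given without LysM_Cre replicates 1 and 4 and without replicates 2 and 3. The labels give all 4 controls the same genotype. The cause of this gap was not tested, and with Ntn1 so scarce the files gave no firm check of the genotype of single libraries. The alveolar macrophage markers were detected in every library, with a summed level of 75579 to 127171 normalized counts in Ntn1_KO and 59084 to 95411 in LysM_Cre.

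Markers of several other cell types differed between the groups. All 8 natural killer cell markers were higher in Ntn1_KO (summed level 40724 to 45448, against 8267 to 13500.4 normalized counts in LysM_Cre). Of 12 monocyte and recruited macrophage markers, 1 was higher and 8 were lower (29473 to 34755 in Ntn1_KO against 50575 to 71284 in LysM_Cre). Of 9 neutrophil markers, 6 were higher (21733 to 63368 in Ntn1_KO against 14276 to 15155 in LysM_Cre), and of 9 epithelial markers 6 were higher (809 to 1155 in Ntn1_KO against 452 to 547 in LysM_Cre). The summed T cell, dendritic, eosinophil, basophil and mast cell, and endothelial and stromal markers were also higher in every Ntn1_KO library than in any control. These sums do not mean that each set rose as a whole. T cell markers summed to 7389 to 9515 in Ntn1_KO and 5716 to 6944 in LysM_Cre, and 2 of 8 were called higher. Of these 8, 4 had a positive and 4 a negative log2 fold change (median 0.09). Dendritic cell markers summed to 1352 to 2455 in Ntn1_KO and 753 to 1192 in LysM_Cre, with 1 of 5 called higher. Of these 5, 3 had a positive and 2 a negative fold change. Eosinophil, basophil and mast cell markers summed to 3125 to 4631 in Ntn1_KO and 1955 to 2178 in LysM_Cre, with 2 of 2 tested called higher. Only 3 of the 6 markers listed for these cells had a row, so this sum is a weak sign of them. Endothelial and stromal markers summed to 1585 to 1830.2 in Ntn1_KO and 910.0 to 1211 in LysM_Cre, with 1 higher and 1 lower of 5 tested. Of these 5, 3 had a positive and 2 a negative fold change. The summed erythroid and B and plasma cell markers overlapped between the groups. Erythroid markers summed to 6936 to 136707 in Ntn1_KO and 1254 to 26211 in LysM_Cre, with 0 of 7 called. B and plasma cell markers summed to 588 to 957 in Ntn1_KO and 520 to 703 in LysM_Cre, with 1 of 4 tested called higher. Of 15 cell cycle genes, 7 were higher, with summed levels of 13457 to 20668 in Ntn1_KO and 12668 to 15729 in LysM_Cre. No marker in the table was under 3 reads over the libraries. Their part in the results on initiation factors was not tested, and in bulk RNA more cells of a type and more RNA per cell cannot be told apart.

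In textbook initiation, eIF2 bound to GTP carries the initiator tRNA to the small ribosomal subunit, where eIF1, eIF1A, eIF3 and eIF5 also sit. The cap of the mRNA is bound by eIF4E, which eIF4G joins to the helicase eIF4A and to eIF3, and the complex scans to the start codon. eIF5 then promotes GTP hydrolysis on eIF2, eIF5B helps the large subunit join, and eIF2B recharges eIF2 with GTP. Cells set the rate of the process mainly through phosphorylation of the eIF2 alpha subunit and through the eIF4E-binding proteins, which are controlled by the kinase mTORC1. Macrophages exposed to lipopolysaccharide are known to use such controls to adjust the output of cytokine mRNAs.

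As a family, the initiation factor transcripts differed little between Ntn1_KO and LysM_Cre airspace cells. Of the 48 genes, 9 were higher and 2 were lower in Ntn1_KO at an adjusted p under 0.05 (limma, Benjamini-Hochberg over all rows tested). That is 22.9% of the members, near the 21.7% called among all 12963 rows. Of all rows 10.4% were higher and 11.3% lower, so the directions were near even there, whereas more of the called members were higher. This lean was not tested. On the recovered reads, edgeR called 9 members higher and 3 lower, with 22.1% of all rows called, and DESeq2 called 11 higher and 3 lower, with 23.4% of all rows called. The median log2 fold change (Ntn1_KO over LysM_Cre, on the log2(normalized count + 1) scale, as for every fold change here) was 0.05 for the members and 0.01 for all rows. The members' fold changes lay between -0.39 and 0.40, so that 0 of 48 reached 1.5-fold, against 16.5% of all rows. Together the members took 0.777, 0.827 and 0.823% of the reads in the Ntn1_KO libraries, against 0.787, 0.775, 0.792 and 0.772% in the LysM_Cre libraries. The Ntn1_KO values for this share lay on either side of the highest LysM_Cre value.

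The 9 higher genes were 5 subunits of eIF3 (Eif3f, Eif3h, Eif3i, Eif3k and Eif3l), the helicase gene Eif4a3, and Eif1ad, Eif2d and Eif4enif1. The 2 lower genes were Eif3a, the largest eIF3 subunit, and Eif5b. All 11 had groups that did not overlap, as did another 9 members that did not pass the test. Of the 48 members, 20 were without overlap, 16 higher and 4 lower. Among all rows 33.8% were without overlap, and there the directions were near even, with 17.4% higher and 16.3% lower.

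**Figure D1:**
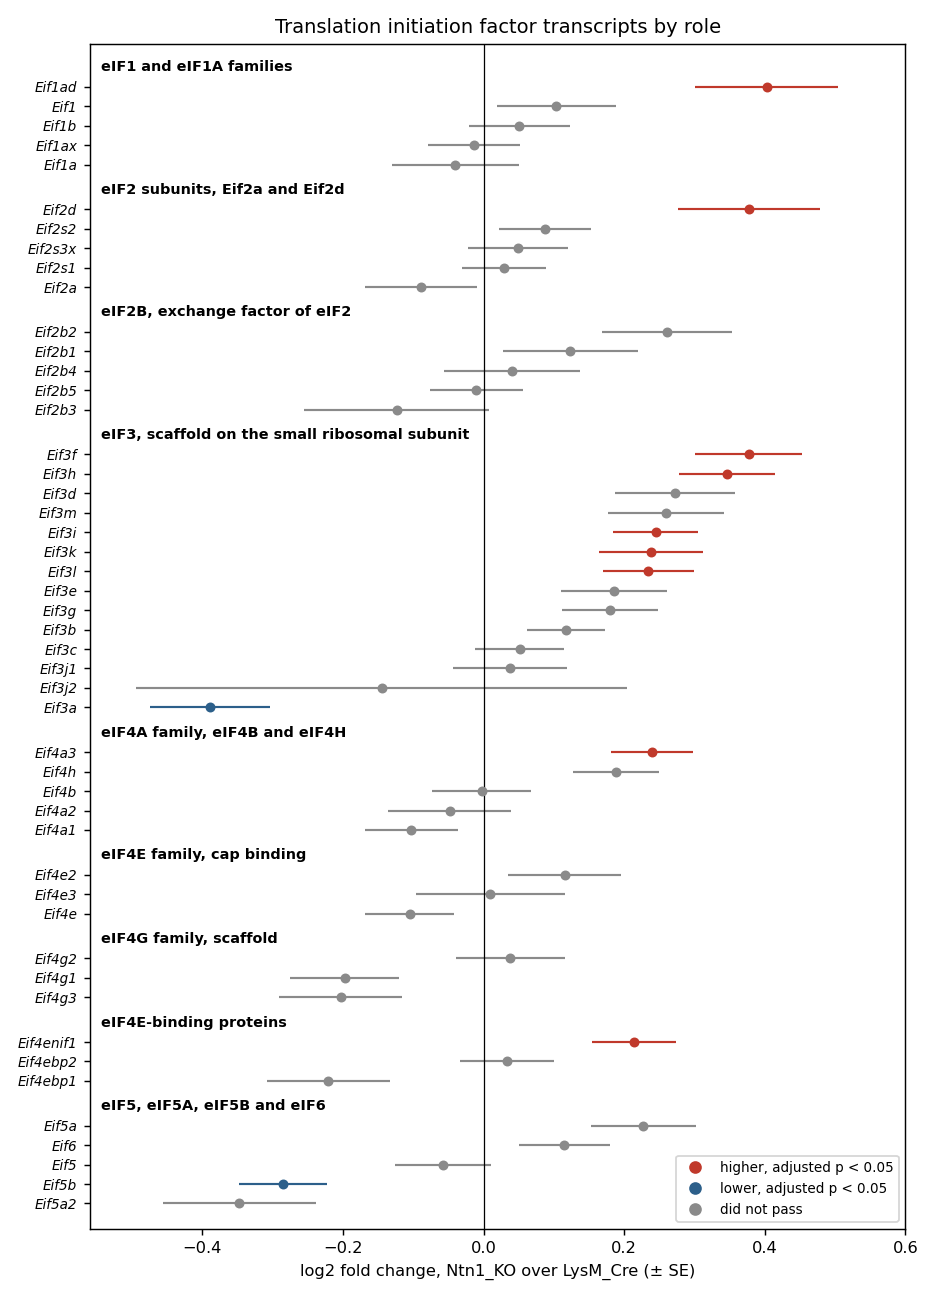
Log2 fold change of each of the 48 initiation factor transcripts, Ntn1_KO over LysM_Cre (x axis, log2 scale), with points for the estimate and lines for ± 1 SE, grouped by role down the page. The estimates run from -0.39 (Eif3a) to 0.40 (Eif1ad), and within eIF3 12 of 14 lie above 0.

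The number of members called depended on which libraries were in the comparison, as did the number over all rows. The number of higher members was 2 without LysM_Cre replicate 2, 3 without LysM_Cre replicate 4, 4 without Ntn1_KO replicate 1 and 2 without Ntn1_KO replicate 2, and between 7 and 8 when any other single library was left out. Over all rows 1352 were higher with all libraries, and 893, 894, 1173 and 694 in the named fits, in that order. In the other fits this number was between 1028 and 1151. The number of lower members was between 1 (without Ntn1_KO replicate 2) and 3 (without LysM_Cre replicate 2 or Ntn1_KO replicate 1). Over all rows 1461 were lower with all libraries, 810 without Ntn1_KO replicate 2, 926 without LysM_Cre replicate 2 and 1241 without Ntn1_KO replicate 1. Without LysM_Cre replicates 1 and 4, the controls with high Lyz2, limma called 2 members higher and 0 lower (9.25% of all rows called), and 12 higher and 4 lower at an unadjusted p under 0.05 (29.2% of all rows). Without LysM_Cre replicates 2 and 3 limma called 0 higher and 0 lower (9.51% of all rows called), and 10 higher and 3 lower at an unadjusted p under 0.05 (28.8% of all rows). At that level 16 members were higher and 6 lower with all libraries, against 36.6% of all rows. The edgeR and DESeq2 tests were run on all libraries only.

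**Figure D2:**
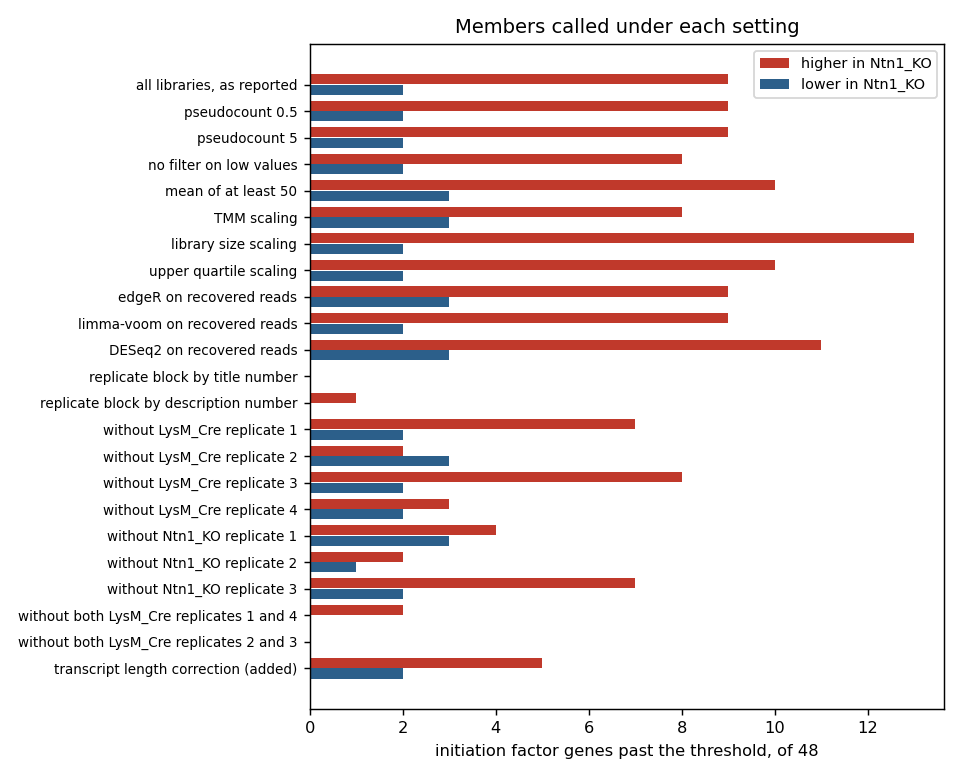
Number of the 48 initiation factor genes past the threshold (x axis) under each setting (rows), in red for genes higher in Ntn1_KO and in blue for genes lower. With all libraries 9 were higher and 2 lower, library size scaling gave 13 and 2, and leaving out both LysM_Cre replicates 2 and 3 gave 0 and 0.

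eIF3 is the largest of the initiation factors and sits on the small ribosomal subunit, where it holds the other factors and the mRNA. Its a, c, e, f, h, k, l and m subunits form an octamer, to which the module of b, g and i and the d subunit are attached, while j binds loosely. Of its 14 genes, 5 were higher and 1 was lower, and 12 had a positive fold change, with a median of 0.21. The number higher was 2 without LysM_Cre replicate 2, LysM_Cre replicate 4, Ntn1_KO replicate 1 or Ntn1_KO replicate 2, and 2 without LysM_Cre replicates 1 and 4. It was 0 by limma without LysM_Cre replicates 2 and 3, where 6 were higher and 1 lower at an unadjusted p under 0.05. After a correction for transcript length, described below, 2 were higher and 1 lower. Over all rows 1352 were higher with all libraries, and 893, 894, 1173 and 694 in the fits without those single libraries, in that order. Outside eIF3, 5 of 34 members (14.7%) were called, and 21.7% of all rows. These counts describe the family by role, and the role groups were not compared by a test.

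Eif3h, which encodes an MPN-domain subunit of the octamer, had 2961, 2779 and 2670.4 normalized counts in Ntn1_KO libraries, against 2267, 2057, 2200.1 and 2295 in LysM_Cre libraries. Every Ntn1_KO library was above every LysM_Cre library. The log2 fold change was 0.35 ± 0.07 (SE; limma adjusted p = 0.00928), and Eif3h lies on chromosome 15, 51786558 to 51865523 (GRCm38, GENCODE M21, as for each position here unless a RefSeq window is named).

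Eif3f, the other MPN-domain subunit, lies on chromosome 7, 108934417 to 108942951. It had 3082, 3173 and 2817 normalized counts in Ntn1_KO libraries, against 2523, 2167, 2265 and 2361 in LysM_Cre libraries. The groups were again apart, with a log2 fold change of 0.38 ± 0.08 (SE; limma adjusted p = 0.0101). Eif3f and Eif3h passed the test with any single library left out, with adjusted p between 0.0116 and 0.0464 for Eif3f and between 0.0159 and 0.0362 for Eif3h. Without LysM_Cre replicates 1 and 4 both still passed (0.0334 and 0.0411), and without LysM_Cre replicates 2 and 3 both did not (0.0777 and 0.0697).

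Eif3i encodes a WD-repeat subunit that binds eIF3b (chromosome 4, 129591960 to 129600648). It had 1128, 1043 and 1054 normalized counts in Ntn1_KO libraries, against 906, 885, 929 and 907 in LysM_Cre libraries. The Ntn1_KO values were all higher, by 0.24 ± 0.06 on the log2 scale (SE; limma adjusted p = 0.0223). The call was lost without LysM_Cre replicate 2 or 4 or Ntn1_KO replicate 1 or 2, where the adjusted p was 0.0631, 0.0568, 0.0510 and 0.0558 in that order. It was also lost without LysM_Cre replicates 1 and 4 (0.111) and without replicates 2 and 3 (0.103).

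Eif3k and Eif3l encode octamer subunits that bind each other at its edge. Eif3k (chromosome 7, 28971372 to 28981864) had 1594, 1590.3 and 1400.2 normalized counts in Ntn1_KO libraries, against 1354, 1212, 1338 and 1275 in LysM_Cre libraries, a log2 fold change of 0.24 ± 0.07 (SE; limma adjusted p = 0.0497). Eif3l (chromosome 15, 79075179 to 79094405) had 1599, 1633 and 1594 in Ntn1_KO libraries, against 1454, 1292, 1409.8 and 1319 in LysM_Cre libraries, a log2 fold change of 0.23 ± 0.06 (SE; limma adjusted p = 0.0335). In both genes the lowest Ntn1_KO library lay above the highest LysM_Cre library. Eif3k passed in 1 of 7 fits with a library left out (without Ntn1_KO replicate 3, 0.0324) and reached 0.160 without Ntn1_KO replicate 2. Eif3l passed in 2 of 7 (without LysM_Cre replicate 1 or 3) and reached 0.108 without Ntn1_KO replicate 2. Neither passed without LysM_Cre replicates 1 and 4 (0.138 for Eif3k and 0.0968 for Eif3l) or without replicates 2 and 3 (0.182 and 0.139). With all libraries, Eif3k also missed the threshold with TMM scaling (0.0530), edgeR (0.0519), limma-voom (0.0560) and no filter on low values (0.0585).

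Eif3a encodes the subunit on which the octamer and the b, g and i module are assembled (chromosome 19, 60761117 to 60790658). It had 4537, 5212 and 5582 normalized counts in Ntn1_KO libraries, against 6879, 6452, 6445 and 6922 in LysM_Cre libraries. All Ntn1_KO libraries were below all LysM_Cre libraries, and replicate 1 was the lowest of them. Eif3a fell by 0.39 on the log2 scale (log2 fold change -0.39 ± 0.09, SE; limma adjusted p = 0.0143). It passed with any single library left out, with adjusted p between 0.0140 and 0.0440, and did not pass without LysM_Cre replicates 1 and 4 (0.102) or without LysM_Cre replicates 2 and 3 (0.0546). Ntn1_KO replicate 1 also had the highest summed neutrophil markers (63368, against 21733 and 22151 in the other Ntn1_KO libraries) and erythroid markers (136707, against 10593 and 6936). The erythroid sum also varied among the LysM_Cre libraries, from 1254 to 26211. The fold change of Eif3a without that library was -0.31 (limma adjusted p = 0.0254).

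The amount of Eif3a relative to Eif3f and Eif3h was also taken within each library, where no scaling between libraries enters. The ratio of Eif3a reads to Eif3f reads was 1.47, 1.64 and 1.98 in Ntn1_KO libraries, against 2.73, 2.98, 2.85 and 2.93 in LysM_Cre libraries. Its mean was 1.70 ± 0.26 (SD, n = 3) in Ntn1_KO and 2.87 ± 0.11 (SD, n = 4) in LysM_Cre. The ratio to Eif3h reads was 1.53, 1.88 and 2.09 in Ntn1_KO libraries and 3.03, 3.14, 2.93 and 3.02 in LysM_Cre libraries. Neither ratio overlapped between the groups, which follows from Eif3a being apart downward and Eif3f and Eif3h apart upward. The lack of overlap is therefore not a further result. The ratios of Eif4g1 to Eif4a1 and of Eif4ebp1 to Eif4e, also taken, overlapped between the groups. The pair was chosen after the values were seen, so no test is given, and the ratio shows unequal change and not which transcript changed.

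**Figure D3:**
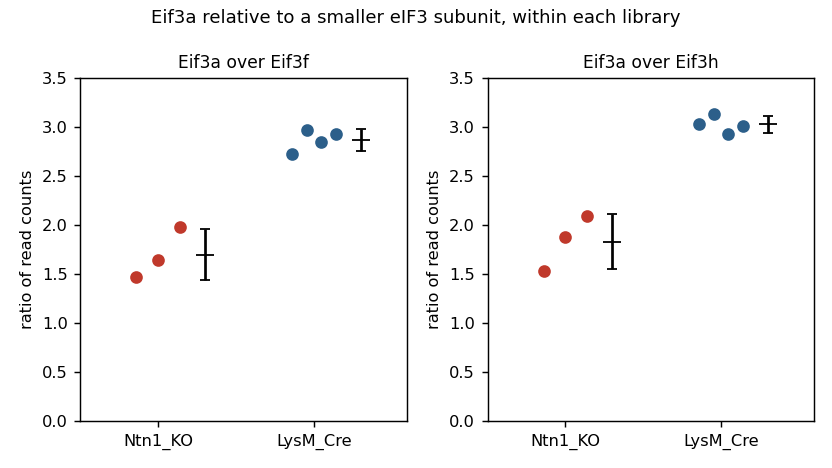
Ratio of Eif3a reads to Eif3f reads (left panel) and to Eif3h reads (right panel) in each library (y axis, ratio of read counts, starting at 0), with Ntn1_KO in red and LysM_Cre in blue. Bars are the mean ± SD; the ratio to Eif3f averages 1.70 in Ntn1_KO and 2.87 in LysM_Cre.

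The other eIF3 subunits did not pass the test. Eif3d, whose product can itself bind the cap of some mRNAs, had a log2 fold change of 0.27 (limma adjusted p = 0.0516), and the octamer subunit Eif3m had 0.26 (0.0543). Their groups did not overlap, nor did those of Eif3g and Eif3b. Eif3e had 0.19 (0.111), Eif3g 0.18 (0.0899), Eif3b 0.12 (0.164), Eif3c 0.05 (0.598) and Eif3j1 0.04 (0.769). Eif3j2, a near copy of Eif3j1 with 9.13, 10.6 and 18.1 normalized counts in Ntn1_KO libraries and 8.13, 16.6, 15.9 and 15.0 in LysM_Cre libraries, had -0.15 with an SE of 0.35, and its depth could not show a difference of the size seen in the other subunits. Reads could be split between the 2 copies, so these values are uncertain.

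Per kilobase of transcript, the levels of the core subunits were not equal. Eif3h was the highest, with 2165 ± 113 normalized counts per kilobase in Ntn1_KO (SD, n = 3) and 1702 ± 82.0 in LysM_Cre (SD, n = 4). Eif3k had 1681 ± 122 in Ntn1_KO and 1425 ± 71.1 in LysM_Cre per kilobase, and Eif3e 1645 ± 77.8 in Ntn1_KO and 1448 ± 106 in LysM_Cre, so that these neighbours in the order lay within their spread in each group. Eif3c (1208 ± 20.4 in Ntn1_KO) and Eif3f (1203 ± 73.6 in Ntn1_KO) were next in the Ntn1_KO libraries. In LysM_Cre the level of Eif3a per kilobase, 1302 ± 51.0, was above that of Eif3f, 926 ± 60.3, whereas in Ntn1_KO Eif3a had 997 ± 103 and Eif3f 1203 ± 73.6. Eif3j1 was low, at 81.4 ± 6.05 in Ntn1_KO and 79.2 ± 4.31 normalized counts per kilobase in LysM_Cre. Over the whole family the highest levels per kilobase were those of Eif5a, 3736 ± 88.6 in Ntn1_KO and 3197 ± 226 in LysM_Cre, and of Eif4a1, 3495 ± 88.3 in Ntn1_KO and 3754 ± 131 in LysM_Cre. These levels depend on the transcript chosen for the length.

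Start sites are shown for eIF3 subunits that moved in opposite directions and for Eif5b, the other lower member. The other members that have a long pyrimidine run and did not pass the test are also shown. mRNAs of ribosomal proteins and of several translation factors begin with a run of pyrimidines, through which mTORC1 controls their translation. The windows below are RefSeq start sites on GRCm38.p6, 12 bases before the start and 18 from it, written 5′ to 3′, and capitals mark the unbroken run of C and T that covers the start base.
Eif3f (chr7:108934403-108934432, plus strand): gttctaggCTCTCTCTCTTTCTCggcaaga
Eif3l (chr15:79075211-79075240, plus strand): cggagTTCTTCTTCCgctctctcccacggg
Eif2b5 (chr16:20498805-20498834, plus strand): TCCTCTTTCTCTCCCTgcaactacaccttc
Eif2s3x (chrX:94212634-94212663, minus strand): ccgagcaTTTTCCTTTTCTCTCCgagcaag
Eif3k (chr7:28981871-28981900, minus strand): acaaccggcgctggtgctgaaagcgccttt
Eif3a (chr19:60790676-60790705, minus strand): ggctcgggcggcggcgctgccgccgcgagg
Eif5b (chr1:37997998-37998027, plus strand): gcctgggttcccacctggccggcggctcta
Eif3f had a run of 15 bases and Eif3l a run of 10, and both were higher in Ntn1_KO. Eif2b5, with the longest run of the matched members (21 bases, of which the first lie before the window), and Eif2s3x, with a run of 16, were not called. Eif3k, which was higher, and Eif3a and Eif5b, which were lower, had no run over the start base. Of the higher members not shown, Eif1ad and Eif2d had no run, and Eif4a3 and Eif4enif1 had at most 3 bases. A run of at least 8 bases was thus found in 2 of the 7 matched higher members. RefSeq windows were matched for 38 of the 48 members, and a run of at least 8 bases was found in 4 of their 50 windows (8.0%), against 3.86% of 32851 windows of all genes.

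The stretch just upstream is shown for Eif3f and Eif3a, the highest and the lowest fold changes within eIF3. Each line gives the 250 bases that end at the base before the RefSeq start (GRCm38.p6), and capitals mark matches, on either strand, to CACGTG (the E-box bound by MYC, USF and TFE factors) and CCAAT (bound by NF-Y).
Eif3f (chr7:108934165-108934414, plus strand): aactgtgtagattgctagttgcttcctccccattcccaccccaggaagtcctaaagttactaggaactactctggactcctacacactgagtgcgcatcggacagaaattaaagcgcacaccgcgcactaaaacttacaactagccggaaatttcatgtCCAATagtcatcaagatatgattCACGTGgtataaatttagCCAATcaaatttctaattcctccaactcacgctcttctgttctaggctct
Eif3a (chr19:60790694-60790943, minus strand): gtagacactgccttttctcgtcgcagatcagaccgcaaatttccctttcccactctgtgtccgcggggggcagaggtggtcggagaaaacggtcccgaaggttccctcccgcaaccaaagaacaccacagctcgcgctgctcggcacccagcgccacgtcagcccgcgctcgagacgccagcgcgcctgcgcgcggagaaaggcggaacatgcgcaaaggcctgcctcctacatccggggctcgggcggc
Eif3f held 1 CACGTG and 2 CCAAT matches, and Eif3a held none in this window. In the same 250 bases before the start, CACGTG was found in 22.0% of the members' windows and 6.02% of all windows. CCAAT was found in 24.0% of the members' windows and 33.8% of all windows. CCGGAAG, an ETS-like motif, was found in 24.0% of the members' windows and 6.91% of all windows. All windows means 32851 windows of 27025 genes, and not only the genes tested in these cells. A gene can have several windows, so that the 11 windows of members with CACGTG came from 9 genes. The windows of the members that rose held CACGTG in 2 of 10, and those of the members that fell in 0 of 2. A match is a description of the letters, and Eif3h and Eif3i are named only, as they have no entry in the table.

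The remaining called members lie outside eIF3. Eif1ad encodes a protein with an eIF1A-like domain (chromosome 19, 5366741 to 5371526). It had 566, 512 and 519 normalized counts in Ntn1_KO libraries, against 444, 394, 435 and 344 in LysM_Cre libraries. The groups were apart and the log2 fold change was 0.40 ± 0.10 (SE; limma adjusted p = 0.0239). The call was lost without LysM_Cre replicate 2 (0.0626) and without Ntn1_KO replicate 1, 2 or 3 (0.0603, 0.0583 and 0.0511). It was also lost without LysM_Cre replicates 1 and 4 (0.0679) and without replicates 2 and 3 (0.0818). The start codon selection factors proper, Eif1, Eif1b, Eif1a and Eif1ax, had fold changes between -0.04 and 0.10 and were not called. Eif1a and Eif1ax are near copies between which reads could be split.

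Eif2d encodes a factor that can place tRNA on the small subunit without eIF2 and that acts in ribosome recycling (chromosome 1, 131153181 to 131187658). It had 418, 468 and 397 normalized counts in Ntn1_KO libraries, against 311, 299, 374 and 332 in LysM_Cre libraries. The Ntn1_KO values were the higher ones, by 0.38 ± 0.10 on the log2 scale (SE; limma adjusted p = 0.0298). The call was lost without LysM_Cre replicate 1, 2 or 4 (0.0631, 0.0778 and 0.0658) and without Ntn1_KO replicate 2 (0.111), and in the fits without LysM_Cre replicates 1 and 4 (0.143) and without replicates 2 and 3 (0.0659). Eif1ad and Eif2d overlap Banf1 and Rassf5 on the opposite strand, and as no source used here gives the strand setting of the counting, reads of the partners cannot be told apart.

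The 3 subunits of eIF2 itself, which carries the initiator tRNA, did not pass the test. Eif2s3x, the X-linked gene of the gamma subunit, had 536, 572 and 599 normalized counts in Ntn1_KO libraries, against 583, 540.1, 530.1 and 547 in LysM_Cre libraries, and the groups overlapped (log2 fold change 0.05, limma adjusted p = 0.656). Its Y-linked copy Eif2s3y, which is not a member, had between 1344 and 1482 in Ntn1_KO and between 1215 and 1346 in LysM_Cre, so it was expressed in every library. Eif2s1 (alpha) had a fold change of 0.03 and Eif2s2 (beta) of 0.09. Eif2a, which despite its name is a separate tRNA-binding factor, had -0.09.

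None of the 5 subunits of eIF2B, the exchange factor that reloads eIF2 with GTP, passed the test in limma, edgeR or DESeq2, and 1 was higher at an unadjusted p under 0.05. Eif2b2, the beta subunit, came nearest. It had 495, 443 and 399 normalized counts in Ntn1_KO libraries, against 387, 375, 381 and 341 in LysM_Cre libraries. The groups did not overlap, with a log2 fold change of 0.26 (limma adjusted p = 0.0750; 0.0470 without Ntn1_KO replicate 3). Eif2b5, the catalytic subunit, had a fold change of -0.01 (0.928), and Eif2b1, Eif2b3 and Eif2b4 lay between -0.12 and 0.12.

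Among the helicases and their partners, Eif4a3 was called (chromosome 11, 119288363 to 119300089). Its product is a core of the exon junction complex on spliced mRNA and not the helicase of the cap complex. It had 970.4, 953 and 966 normalized counts in Ntn1_KO libraries, against 803, 813, 849 and 799 in LysM_Cre libraries. The Ntn1_KO libraries lay within a narrow range above the controls (log2 fold change 0.24 ± 0.06, SE; limma adjusted p = 0.0213). The call was lost without LysM_Cre replicate 2 or 4 (0.0564 and 0.0601) and without Ntn1_KO replicate 2 or 3 (0.0666 and 0.0546), and without LysM_Cre replicates 1 and 4 (0.130) or replicates 2 and 3 (0.0745). The cap-complex helicases Eif4a1 and Eif4a2 had fold changes of -0.10 and -0.05, and their cofactors Eif4b and Eif4h 0.00 and 0.19 (limma adjusted p = 0.980 and 0.0595).

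None of the 3 cap-binding and 3 scaffold genes was called by limma, edgeR or DESeq2. At an unadjusted p under 0.05 limma gave 0 of the cap-binding genes and 2 of the scaffold genes, both lower. Eif4e, the cap-binding protein, had 1029, 981 and 1014 normalized counts in Ntn1_KO libraries, against 1127, 1115, 1016 and 1082 in LysM_Cre libraries. The groups overlapped, with a log2 fold change of -0.11 (limma adjusted p = 0.263). Eif4g1, the scaffold that joins eIF4E, eIF4A and eIF3, had 4157, 4574 and 5018 in Ntn1_KO libraries, against 5254, 5386, 5151 and 5174 in LysM_Cre libraries. Its groups did not overlap, and its fold change was -0.20 (0.0993). Eif4g3 also had -0.20 (0.128), and Eif4g2, whose product lacks the eIF4E-binding site, had 0.04, with 13608 ± 435 normalized counts in Ntn1_KO (SD, n = 3) and 13259 ± 553 in LysM_Cre (SD, n = 4). Eif4e2 and Eif4e3, the other cap-binding family members, had 0.12 and 0.01.

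Of the proteins that bind eIF4E, Eif4enif1 was called (chromosome 11, 3202392 to 3244588). Its product carries eIF4E into the nucleus and to processing bodies and represses bound mRNAs. It had 873, 884 and 874 normalized counts in Ntn1_KO libraries, against 749, 778, 769 and 729 in LysM_Cre libraries. The groups were apart, by 0.21 ± 0.06 on the log2 scale (SE; limma adjusted p = 0.0336), but the call was lost with any single library left out (0.0520 to 0.107), without LysM_Cre replicates 1 and 4 (0.178) and without replicates 2 and 3 (0.0913).

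Eif4ebp1, the eIF4E inhibitor released by mTORC1 phosphorylation, had 399.5, 324 and 361 normalized counts in Ntn1_KO libraries, against 429, 399.2, 425 and 429 in LysM_Cre libraries. The highest Ntn1_KO value lay just above the lowest LysM_Cre value (log2 fold change -0.22, limma adjusted p = 0.101). It passed without Ntn1_KO replicate 1 (0.0438). Eif4ebp2, the related inhibitor, had 1894, 1891 and 1845 in Ntn1_KO libraries, against 1894, 1782, 1958 and 1709 in LysM_Cre libraries, with full overlap and a fold change of 0.03 (0.749).

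Eif5b, the GTPase of subunit joining, was the other member that fell (chromosome 1, 37998010 to 38055579). It had 1543, 1548 and 1696 normalized counts in Ntn1_KO libraries, against 1886, 1915, 1997 and 1976 in LysM_Cre libraries. All Ntn1_KO libraries were below the controls, and the log2 fold change was -0.29 ± 0.06 (SE; limma adjusted p = 0.0146). The call was lost without Ntn1_KO replicate 2 (0.0623) and held without any other single library, but not without LysM_Cre replicates 1 and 4 (0.0764) or replicates 2 and 3 (0.0869). Rev1 overlaps Eif5b on the opposite strand. Eif5, which triggers GTP hydrolysis on eIF2, had -0.06, and Eif6, which keeps the large subunit from joining early, had 0.11, and neither was called. Eif5a, which aids elongation and termination, had 0.23 (limma adjusted p = 0.0595) and its paralog Eif5a2 -0.35 (0.0510), with no overlap between groups in either.

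**Figure D4:**
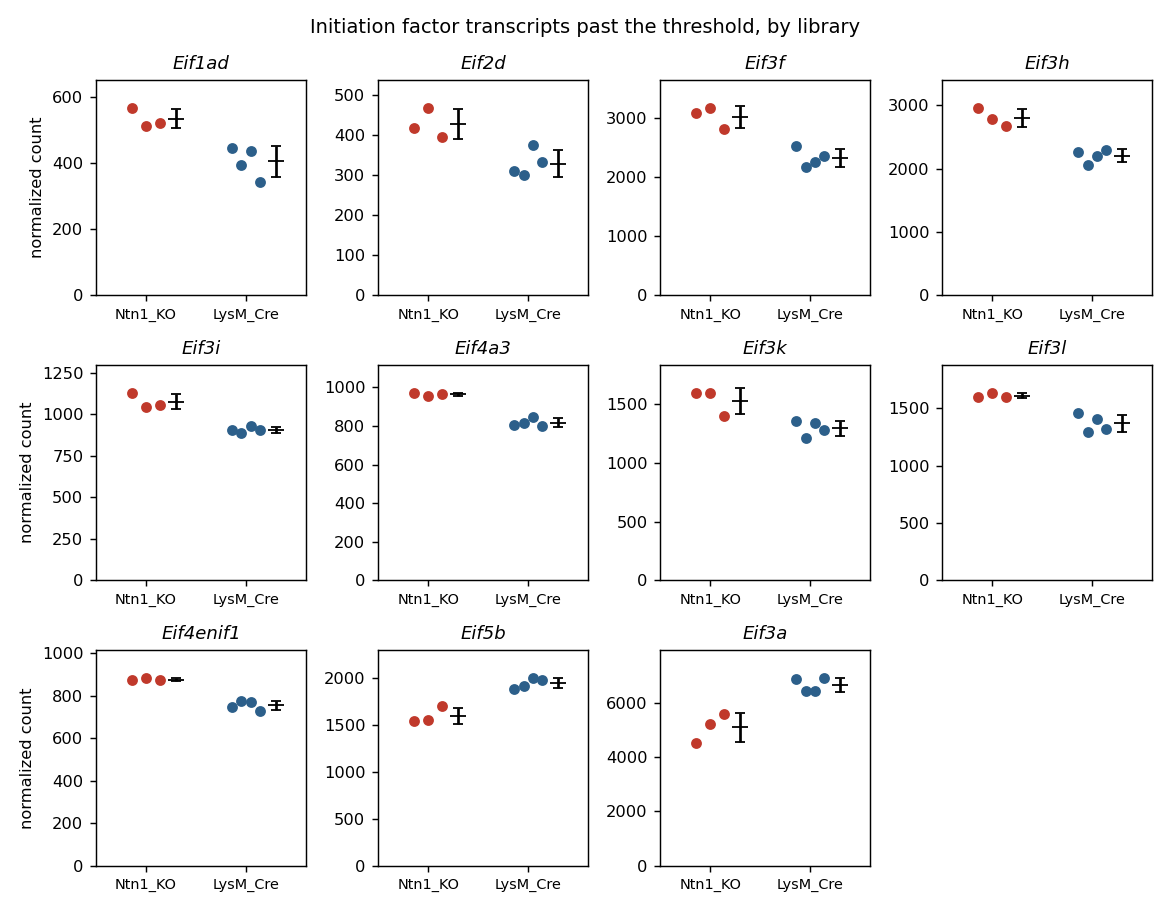
Normalized counts (y axes, starting at 0) of the 11 initiation factor genes past the threshold, 1 point per library, with Ntn1_KO in red and LysM_Cre in blue and bars for the mean ± SD. In every panel the groups are apart, with Eif5b and Eif3a lower in Ntn1_KO and the other 9 higher.

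Longer members tended to have lower fold changes. Over the 48 members the Spearman correlation of log2 fold change with transcript length was -0.57, and over 12950 tested rows with a length it was -0.23. The points share the same 7 libraries, so no p is given. Of the 24 members with transcripts shorter than the members' median of 2555 bases, 6 were higher and 0 lower, with a median fold change of 0.15. Of the 24 longer ones, 3 were higher and 2 lower, with a median of 0.01. Among all rows shorter than that, 13.0% were higher and 5.89% lower (median 0.10), and among longer rows 8.69% were higher and 15.0% lower (median -0.04).

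When the trend with length was removed from each library, 19.7% of rows were called, and 5 members were higher (Eif1ad, Eif2d, Eif3f, Eif3h and Eif4enif1) and 2 lower (Eif3a and Eif4ebp1). Eif3i, Eif3k, Eif3l, Eif4a3 and Eif5b then missed the threshold, with limma adjusted p of 0.135, 0.228, 0.101, 0.131 and 0.188 in that order. Eif3f had a fold change of 0.33 and Eif3a of -0.32 after the correction. RNA quality values were not analysed here.

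**Figure D5:**
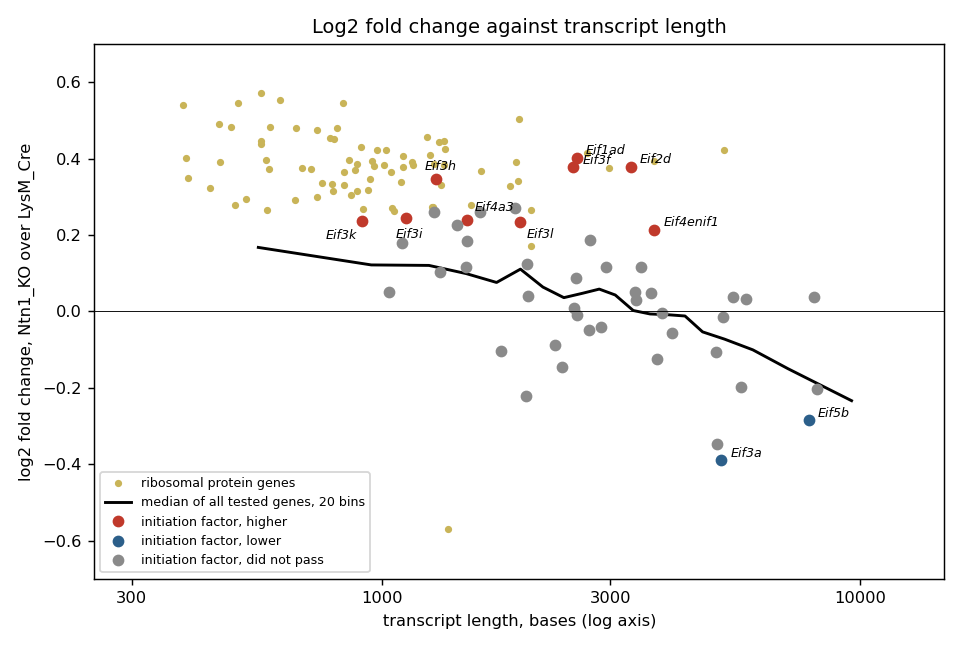
Log2 fold change, Ntn1_KO over LysM_Cre (y axis), against transcript length in bases (x axis, log scale), for the initiation factor genes (large points), the ribosomal protein genes (small points) and, as a black line, the median of all tested genes in 20 bins of length. Eif3a and Eif5b lie at the long end below 0, and 6 of the 9 higher members lie on the short side of 2555 bases.

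The genes that work with the initiation factors are given by list, and their counts stand against the 21.7% of all rows called. Fits with fewer libraries called fewer rows. With a single library left out 694 to 1173 rows were higher and 810 to 1293 lower, against 1352 and 1461 with all libraries. The share of rows called was 9.25% without LysM_Cre replicates 1 and 4, and 9.51% without replicates 2 and 3. Of 21 initiation partners, 3 were higher and 1 lower (median log2 fold change -0.04). Mknk2, the kinase that phosphorylates eIF4E, had 3589, 3540.2 and 3076 normalized counts in Ntn1_KO libraries, against 2395, 2241, 2457 and 2454 in LysM_Cre libraries (0.51 ± 0.08, SE; limma adjusted p = 0.00306). Paip2b, an inhibitor of the poly(A)-binding protein, had 310.3, 346 and 328 in Ntn1_KO libraries, against 260.0, 262, 237 and 246 in LysM_Cre libraries (0.38, limma adjusted p = 0.0130). Mcts2, a retrogene copy of Mcts1 and so uncertain, was lower, at 19.3, 25.0 and 28.0 in Ntn1_KO libraries and 32.5, 49.9, 38.9 and 45.1 in LysM_Cre libraries (-0.76, limma adjusted p = 0.0376). With single libraries left out the counts ranged from 1 to 3 higher, the 1 without Ntn1_KO replicate 2, and from 0 to 1 lower, the 0 without LysM_Cre replicate 2, 3 or 4 or Ntn1_KO replicate 2. Without LysM_Cre replicates 1 and 4 limma called 1 higher and 0 lower (3 and 1 at an unadjusted p under 0.05), and without replicates 2 and 3 it called 2 higher and 0 lower (3 and 0 unadjusted).

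Of 6 kinases and phosphatases of eIF2 alpha, 0 were higher and 1 was lower, by limma, edgeR and DESeq2 and at an unadjusted p under 0.05. Eif2ak4, the kinase GCN2 that senses amino acid shortage, had 319, 370.2 and 349 normalized counts in Ntn1_KO libraries, against 511, 502, 473 and 534 in LysM_Cre libraries. All Ntn1_KO libraries were below the controls (-0.54 ± 0.08, SE; limma adjusted p = 0.00302), and this list kept at least 1 lower gene with any library left out (2 without LysM_Cre replicate 3). It had 1 lower gene without LysM_Cre replicates 1 and 4 and 2 without replicates 2 and 3. Of 17 tested targets of the integrated stress response, the program started by eIF2 alpha phosphorylation, 1 was higher and 3 were lower, with a median of 0.00. Psat1, a serine synthesis enzyme, had a log2 fold change of 0.32 (limma adjusted p = 0.0370), the cystine transporter Slc7a11 -0.61 (0.0139) and the transcription factor Cebpg -0.35 (0.0247). With libraries left out this list had 0 to 1 higher and 1 to 4 lower genes, with 1 lower without LysM_Cre replicate 1, 2 or 4 or Ntn1_KO replicate 2 or 3, and 0 higher when any one of those 5 libraries was left out. Without LysM_Cre replicates 1 and 4 limma called 0 higher and 0 lower (2 and 2 at an unadjusted p under 0.05), and without replicates 2 and 3 it called 0 higher and 2 lower (2 and 5 unadjusted).

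Of 13 mTORC1 genes, 0 were higher and 2 lower (0 and 5 at an unadjusted p under 0.05, 0 and 3 by edgeR and by DESeq2). The 2 were Tsc1 (-0.52, limma adjusted p = 0.00231) and Deptor (-0.55, 0.0374), both inhibitors of the pathway. The list as a whole had a median of -0.08, with 3 positive and 10 negative fold changes. The lower count was 1 without LysM_Cre replicate 1 or 2 or Ntn1_KO replicate 1, and 1 in each fit without a pair of controls. Of 13 elongation and termination factors tested, 5 were higher and 0 lower (median 0.27; 6 and 0 at an unadjusted p under 0.05, 5 and 0 by edgeR, 6 and 0 by DESeq2). Eef1b2 and Eef1g, subunits of the exchange factor of eEF1A, had 0.42 (limma adjusted p = 0.00470) and 0.34 (0.00616). The higher count was 3 without LysM_Cre replicate 2, LysM_Cre replicate 4 or Ntn1_KO replicate 2, 3 without LysM_Cre replicates 1 and 4, and 2 without replicates 2 and 3. Of 2 mitochondrial initiation factors, 0 were called by limma, edgeR or DESeq2, and 0 had an unadjusted p under 0.05 (median 0.03).

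Among the cytosolic ribosomal protein genes, 73 of 78 tested were higher and 0 lower by limma, edgeR and DESeq2 (75 and 0 at an unadjusted p under 0.05), with a median log2 fold change of 0.38. Rpl39 and Rpl10a, proteins of the large subunit, each had 0.55 (limma adjusted p = 0.00118 and 0.00150). Of the 78 fold changes 77 were positive and 1 was negative (-0.57). The count of higher genes was 50 to 73 with single libraries left out and 55 after the correction for transcript length. Without LysM_Cre replicates 1 and 4 it was 55 (76 at an unadjusted p under 0.05). Without replicates 2 and 3 it was 21 (68 unadjusted).

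In the authors' deposited table, 8 members were higher and 2 lower at an adjusted p under 0.05, where 18.8% of all rows with an adjusted p were called, and 9 of these 10 were also called here. The exception was Eif5a (adjusted p of 0.0427 in the authors' deposited table). In the other direction, Eif3k and Eif4enif1 were called here and just missed the threshold there (adjusted p of 0.0529 and 0.05003 in the authors' deposited table).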

How the data were processed

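Messenger RNA of bronchoalveolar lavage cells was measured in 3 Ntn1_KO and 4 LysM_Cre libraries, grouped by the genotype in the labels. The submitters' processing notes name cutadapt 1.15, STAR 2.5.3a, HTSeq, DESeq2 and the build GRCm38 (mm10). The other versions, the strand setting and the gene annotation were not given in the sources used here. For every library the authors deposited 1 signal column of normalized counts, that is, reads over a size factor per library. Per the file headers, further columns hold the authors' log2 fold change, a statistic (score), and raw and adjusted p-values. Dividing a library's values by its smallest step gave whole numbers for 100% of values (tolerance 0.01), and these were taken as reads. Symbols that had been turned into dates (21) were restored from identifiers.

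Rows with a mean of at least 10 normalized counts were tested with limma 3.58.1 in R 4.3.3 (eBayes with trend) on log2(normalized count + 1), with Benjamini-Hochberg adjustment over all 12963 rows and a threshold of 0.05. Fold changes on this scale understate the change of low genes. Ntn1 was compared by a 2-sided exact permutation test over 35 splits. The design named edgeR for raw counts only, and edgeR 4.0.16 and DESeq2 1.42.0 were run on the recovered reads as alternatives. The pipeline was tested on simulated data.

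Positions and transcript lengths (longest basic protein-coding transcript) were taken from GENCODE M21 (GRCm38; 99.8% of identifiers matched) and promoter windows from RefSeq. Named genes were every member past the threshold, Eif2s3x, Eif4ebp1, Eif4ebp2, the member with the smallest p of each role without a call, and up to 2 called genes per direction of each pathway list. Other members and the ratios were chosen after their values were seen. Members and lists were chosen with earlier results of these data known. Other alternatives were pseudocounts, filters, scalings, limma-voom, replicate blocks, left-out libraries and, added after seeing the data, a correction for transcript length. Libraries of a group were compared before averaging, and none were copies (chi-square per gene of at least 7.85).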

Additional observations from a re-analysis of the deposited data

Results flagged for a closer look

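Eif4e3, a cap-binding protein of the eIF4E family, stood apart in 1 control library. LysM_Cre replicate 3 had 561 normalized counts, against 460.2 to 464 in the other LysM_Cre libraries and 434 to 542 in the Ntn1_KO libraries.

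Eif4ebp1, the eIF4E inhibitor, was lowest in LysM_Cre replicate 2, with 399.2 normalized counts, against 425 to 429 in the other LysM_Cre libraries and 324 to 399.5 in the Ntn1_KO libraries. In each gene the gap of that library to its nearest neighbour was a large share of the range of the 4 controls (past the limit of Dixon's test), which chance exceeds in about 1 in 20 groups. With 48 members in the family, gaps of this kind are likely, and they are not read as a result here.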

How the results depend on the processing

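With other pseudocounts (0.5 and 5), filters, scalings and tools (edgeR, DESeq2, limma-voom), 8 to 13 members were higher and 2 to 3 lower. The highest count was with library size scaling, and no scaling moved the median of all rows by over 0.1 on the log2 scale. With single libraries left out, 2 to 8 members were higher and 1 to 3 lower, and over all rows 694 to 1173 were higher and 810 to 1293 lower, with the lowest of both without Ntn1_KO replicate 2.

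Without LysM_Cre replicates 1 and 4, 2 members were higher and 0 lower, and over all rows 622 and 577. Without LysM_Cre replicates 2 and 3, 0 members were higher and 0 lower, and over all rows 614 and 619. The transcript length correction left 5 members higher, against 9. With the replicate block by the number in the titles, which leaves out LysM_Cre replicate 4, limma called 0 members higher and 0 lower (9 and 3 at an unadjusted p under 0.05), and over all rows 425 and 372. With the replicate block by the number in the descriptions, which leaves out LysM_Cre replicate 1, 1 was higher and 0 lower, and over all rows 607 and 606. Of the ribosomal protein genes, 13 were higher with the title block and 28 with the description block (75 and 74 at an unadjusted p under 0.05). Libraries with the same number did not deviate together (correlations of -0.229, -0.0253 and -0.188 by title and -0.0768, -0.285 and 0.0762 by description), so the numbers were not taken to pair them. Eif4ebp2, at 0.03, was at -0.0001349519 with the title block and without LysM_Cre replicate 4, and otherwise lay between 0.00653 (without LysM_Cre replicates 1 and 4) and 0.130 (transcript length correction), with 0.0653 without LysM_Cre replicate 3. The causes of these changes were not tested. Among the values of named members under all alternatives, 284 kept their direction and side of the threshold, 85 lost the call, 3 gained one and 2 turned.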
